A study of Homo sapiens with 12 samples.

Results

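The difference between 2 MIO-M1 derivative cell lines was measured in the absence of doxycycline (Dox), that is, before either line was induced to express its transgene. MIO-M1 is an established human line of retinal Müller glia, and both derivatives carry a tetracycline transactivator (Tet3G) together with a *DMPK* minigene of exons 11 to 15 behind a Dox-responsive promoter. The minigene of MIO-M1-CTG(648) cells holds an expanded tract of 648 CTG repeats, the mutation type of myotonic dystrophy type 1 (DM1), and that of MIO-M1-CTG(0) cells holds none. The comparison rests on 6 of the 12 Clariom D Human arrays of the series, 3 from non-induced MIO-M1-CTG(648) cells and 3 from non-induced MIO-M1-CTG(0) cells, and describes the 36176 of 135750 probe sets that carry 1 gene symbol (33616 genes). The other 6 arrays, 3 from each line after 8 days with 1 μg/mL Dox, were used to measure the same line difference a second time on separate arrays, with Dox added.

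Each repeat length is represented by 1 stable line, made in cells grown from 1 selected Tet3G clone and kept under G418 and puromycin in tetracycline-free serum. The arrays of a group are biological replicates of that line, so p-values measure the spread between cultures and not between lines, and repeat length cannot be told apart from any other property in which the 2 lines differ. In bulk RNA, fewer cells of a type and less RNA per cell cannot be told apart either.

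Müller glia span the retina and support its neurons, taking up glutamate and potassium and supplying metabolites. Cultured lines of them keep part of this program and also express genes of mesenchymal cells, such as collagens and other extracellular matrix proteins. The differences are given both by gene and by place in the genome, and copy number was not measured.

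The 6 non-induced arrays were alike in overall signal. Median log2 signals lay between 5.15 and 5.21, and between 52.5% and 53.4% of the probe sets reached a signal of 5, the level taken here as signal. Correlations across probe sets were 0.992 to 0.994 within MIO-M1-CTG(648), 0.993 to 0.994 within MIO-M1-CTG(0) and 0.984 to 0.985 between the lines. The median SD of a probe set within each line was 0.21. Over the 12 arrays the first principal component held 41.8% of the variance and placed all MIO-M1-CTG(648) arrays between 42.3 and 44.5 and all MIO-M1-CTG(0) arrays between -46.4 and -41.4, with and without Dox.

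A probe set was called where the log2 difference (648 minus 0) exceeded 0.5 in either direction and the limma p, before adjustment, was below 0.005. By this rule 3668 probe sets differed between the non-induced lines, which is 10.1% of those tested. In MIO-M1-CTG(648) cells 1790 were higher (4.95%) and 1878 lower (5.19%), and they belong to 3587 different genes. The 6 arrays did not overlap between the lines in 9942 (27.5%) of all probe sets. They did not overlap in 3655 of the called probe sets, where the limits of a call nearly fix it. Most differences were small: the median size of a called difference was 0.94, and 1596 exceeded 1, 263 exceeded 2, 93 exceeded 3 and 12 exceeded 5. Among the 18491 genes with signal in at least 1 line, taken at their brightest probe set, 18.5% were called, 8.97% higher and 9.57% lower, with a median difference of -0.037. A gene that reached a signal of 5 only in the line where it is high had to differ, so counts over genes with signal are descriptions. With the limit raised to a difference above 1, 1596 calls were left, and the methods' t-test at the same limits gave 2103.

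Protein-coding genes made up most of the calls, with 1595 higher and 1494 lower of 19337 probe sets (16%). Of 3160 long non-coding RNA probe sets, 57 were higher and 83 lower (4.43%), and of 10561 pseudogene probe sets 92 were higher and 256 lower (3.3%). Small nucleolar RNAs were called in 7.68% of 482 probe sets, 23 higher and 14 lower. Fewer non-coding probe sets reached a signal of 5, 38.5% against 67.6% of the protein-coding ones.

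*DMPK*, the kinase gene whose 3′ end carries the repeat in DM1, was itself higher in MIO-M1-CTG(648) cells. It lies on chromosome 19 (GRCh38.p14, 45769717 to 45782490). Its signal was 10.32, 10.00 and 10.24 on the MIO-M1-CTG(648) arrays, against 7.90, 7.73 and 8.22 on the MIO-M1-CTG(0) arrays, a log2 difference of 2.24 (standard error 0.18, adjusted p = 2.81e-06). The 2 groups did not overlap, and all of these cultures were without Dox. By RT-PCR with a primer specific to the minigene, the paper detected no basal minigene RNA in either line without Dox. The source of the difference on the arrays was not tested. The summarised signal of the gene, as used here, cannot separate the minigene from the endogenous transcript. With Dox the difference was 1.18, and its change of -1.06 passed the limits of a call (defined above) for the interaction but not Benjamini-Hochberg adjustment (adjusted p = 0.166, limma). Over all genes with signal, 8.97% were higher and 9.57% lower. Of 11 genes with signal among *DMPK* and its chromosome 19 neighbours, 5 were higher, *DMPK* included, and 0 lower, with a median of 0.45. They are *QPCTL*, a glutaminyl cyclase of the Golgi (2.49, standard error 0.21), *DMPK* itself, *SNRPD2*, a core protein of spliceosomal snRNPs (1.06), *DMWD* (0.71) and the homeobox gene *SIX5* (0.59, not called with the arrays centred on their medians). The whole 15 Mb block of chromosome 19 from 45 Mb had a median of 0.19, and the block before it 0.24.

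Proteins that bind CUG repeats were not called. Of 9 measured genes of the MBNL and CELF families, 0 passed the threshold in limma. Over all probe sets 10.1% were called, and 9 genes are too few to set the families apart from that share. The methods' t-test at the same limits also called 0, and 2 were lower and 0 higher at an unadjusted limma p under 0.05. Differences were -0.33 for *MBNL1*, -0.21 for *MBNL2*, -0.11 for *CELF1* and -0.42 for *CELF2*. *MBNL3* had the largest size in the family at -0.51 (standard error 0.22).

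The largest difference of any gene was in a collagen chain. *COL6A3*, which encodes the α3 chain of the microfibrillar collagen VI (chromosome 2, 237324018 to 237414164), had signals of 4.66, 4.44 and 4.65 in MIO-M1-CTG(648) cells, against 13.56, 13.95 and 13.96 in MIO-M1-CTG(0) cells. In MIO-M1-CTG(648) cells it lay below the level taken as signal on all 3 arrays. The measured log2 difference was -9.24 (standard error 0.22, adjusted p = 3.74e-11), and with that line set to the signal level of 5 it was at least 8.82 in size. *PCOLCE*, a secreted enhancer of the enzyme that trims the C-terminal end of procollagens (chromosome 7, 100602363 to 100608175), had 5.80, 4.82 and 5.34 in MIO-M1-CTG(648) cells, against 12.96, 13.05 and 12.87 in MIO-M1-CTG(0) cells, a difference of -7.64 (standard error 0.36). *LUM*, the collagen-binding proteoglycan lumican (chromosome 12, 91102629 to 91111494), had 7.96, 7.22 and 7.13 in MIO-M1-CTG(648) cells, against 14.26, 14.76 and 14.40 in MIO-M1-CTG(0) cells, a difference of -7.04 (standard error 0.41). For each of these 3 genes all MIO-M1-CTG(648) arrays lay under 8 and all MIO-M1-CTG(0) arrays above 12. Next came the matrix protease *ADAMTS1* (-6.18), the thioredoxin-like *NXN* (-5.14), the cell adhesion gene *CDH12* (-5.11) and the microfibril-associated *MFAP4* (-4.94). The mucin *MUC15* (-4.70), the sialyltransferase *ST6GAL2* (-4.70), the T-box factor *TBX3* (-4.60), the adhesion molecule *VCAM1* (-4.58), the matrix protein *DPT* (-4.42), the scavenger receptor *COLEC12* (-4.31), *EMB* (-4.23) and *NIPAL2* (-4.03) completed the 15 lowest protein-coding genes.

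Among genes higher in MIO-M1-CTG(648) cells, *SELENOP*, a secreted carrier of selenium (chromosome 5, 42799880 to 42811892), led. Its signals were 11.76, 10.57 and 10.16 in MIO-M1-CTG(648) cells, against 4.61, 5.00 and 4.53 in MIO-M1-CTG(0) cells, a difference of 6.12 (standard error 0.37, adjusted p = 2.52e-07). The MIO-M1-CTG(648) arrays spread more widely here than for most genes but stayed far above those of MIO-M1-CTG(0). *CD180*, a Toll-like surface receptor best known from B cells (chromosome 5, 67179613 to 67196799), had 11.40, 11.38 and 11.88 in MIO-M1-CTG(648) cells, against 4.97, 5.93 and 6.14 in MIO-M1-CTG(0) cells, a difference of 5.87 (standard error 0.36). *MALL*, a membrane proteolipid of the MAL family (chromosome 2, 110083870 to 110118139), had 12.75, 12.83 and 12.56 in MIO-M1-CTG(648) cells, against 6.94, 6.98 and 7.19 in MIO-M1-CTG(0) cells, a difference of 5.68 (standard error 0.18). *CRYAB*, the small heat shock protein αB-crystallin, which Müller glia are known to express (chromosome 11, 111908564 to 111923740), was bright in both lines, with 16.67, 16.67 and 16.60 in MIO-M1-CTG(648) cells, against 11.75, 11.66 and 11.68 in MIO-M1-CTG(0) cells (difference 4.95, standard error 0.23). The replicates of *CRYAB* were nearly equal within each line. The other genes of the 15 highest were the transmembrane protein *TMEFF2* (5.30), the cGMP phosphodiesterase *PDE5A* (5.22), the growth factor myostatin, *MSTN* (5.00), the proteoglycan *ASPN* (4.93), osteopontin, *SPP1* (4.85), the matrix protein *ABI3BP* (4.39), the laminin chain *LAMA1* (4.27), the G protein regulator *RGS2* (4.27), the CXCL12 scavenger receptor *ACKR3* (4.20), the integrin *ITGB4* (4.10) and the semaphorin *SEMA3E* (3.99).

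**Figure D1:**
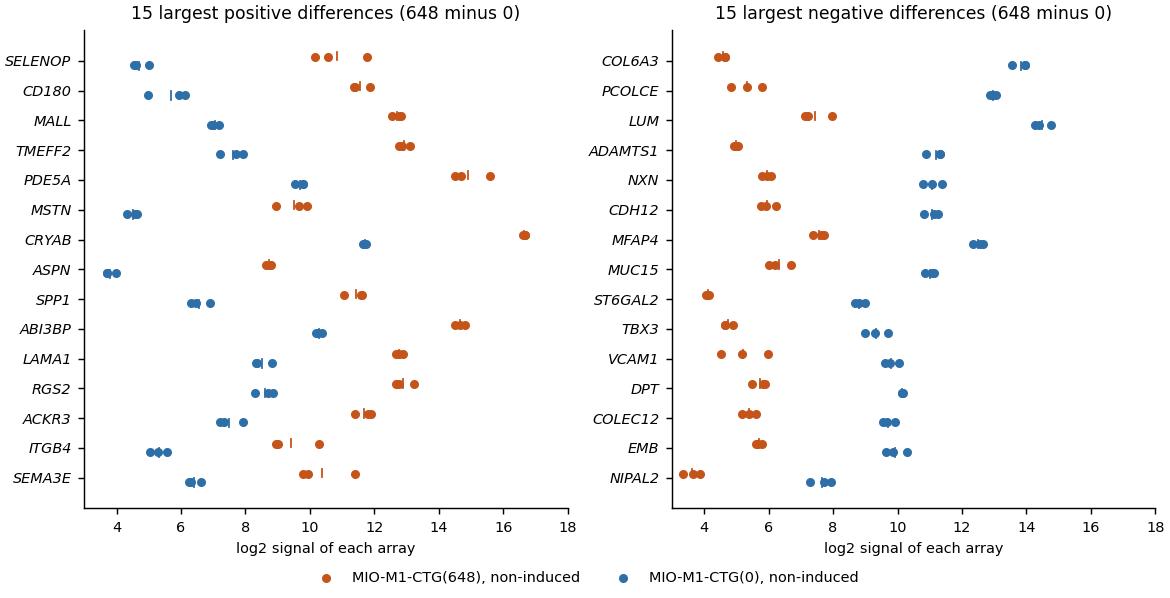
Log2 signal of each non-induced array (points) and the mean of each line (ticks) for the 15 protein-coding genes with the largest positive difference, left, and the largest negative difference, right; MIO-M1-CTG(648) arrays are orange and MIO-M1-CTG(0) arrays blue. Lines that do not overlap were a condition for the genes shown, and *COL6A3* has the difference of largest size, -9.24.

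Some genes had signal in 1 line and none in the other. With a mean of at least 8 in one line and under 5 in the other, 5 genes were high in MIO-M1-CTG(648) cells and 6 in MIO-M1-CTG(0) cells. The 5 are *SELENOP*, *MSTN*, *ASPN*, the receptor phosphatase *PTPRZ1* (8.58 ± 0.42 in MIO-M1-CTG(648) cells against 4.74 ± 0.73 in MIO-M1-CTG(0) cells; SD, n = 3 arrays) and *CDKN1B*, which encodes the cell cycle inhibitor p27. *CDKN1B* had 8.82, 8.09 and 8.00 in MIO-M1-CTG(648) cells, against 5.00, 4.84 and 4.95 in MIO-M1-CTG(0) cells (difference 3.37, standard error 0.24). With Dox its difference was 3.88. The 6 high in MIO-M1-CTG(0) cells are *COL6A3*, *TBX3*, *ST6GAL2*, the neuronal splicing factor *NOVA1* (-3.99), *ARHGAP28* (-3.83) and the elastic fibre protein *FBLN5* (-3.24). Values under 5 have no detection measure here, and with the dim line set to 5 the differences of these 11 genes were at least 3.17 to 8.82 in size.

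Of the non-coding genes, the long non-coding RNA *UCA1* was the highest in MIO-M1-CTG(648) cells, with 10.70, 11.47 and 11.61, against 8.49, 8.14 and 9.0 in MIO-M1-CTG(0) cells (difference 2.72, standard error 0.37). It was followed by the pseudogenes *SLC6A10P* (2.55) and *PROS2P* (2.53), *LINC00470* (2.42), *LOC101928622* (2.40) and *XACT* (2.22). The lowest were the pseudogenes *CDH12P3* (-3.68), *CDH12P1* and *CDH12P2* (-3.63 each) and *CDH12P4* (-2.93), then *LINC01446* (-2.91) and *TEKT4P2* (-2.50). The *CDH12* pseudogenes resemble *CDH12*, itself lower by 5.11, and *CDH12P1* and *CDH12P2* have identical values, so their signals are uncertain as measures of separate transcripts.

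Markers were set against the labelled cell type. Of 19 Müller glia markers measured, 13 had signal. Vimentin (*VIM*) was at 17.44 and 17.67, glutamine synthetase (*GLUL*) at 14.81 and 14.49 and *SOX9* at 14.08 and 13.57 in MIO-M1-CTG(648) and MIO-M1-CTG(0) cells in that order, and none of these 3 was called. The mature Müller glia markers *RLBP1* (2.89 and 2.78), *AQP4* (3.98 and 3.99) and *KCNJ10* (3.20 and 3.14) were under a signal of 5 in both lines. So was *GFAP* (4.85 and 4.66), which is a marker of astrocytes as well. Of the 13 with signal, 4 were higher in MIO-M1-CTG(648) cells and 2 lower, with a median of 0.32 (0.12 with Dox). The 4 higher are *CRYAB*, the secreted *DKK3* (1.08), the eye field factor *PAX6* (0.70) and the hyaluronan receptor *CD44* (0.68), and all 4 lie on chromosome 11. The 2 lower are the glutamate transporter *SLC1A3* and the Notch target *HES1* (-1.50). *SLC1A3* had 11.18, 10.91 and 10.94 in MIO-M1-CTG(648) cells, against 12.77, 12.91 and 13.12 in MIO-M1-CTG(0) cells (difference -1.92, standard error 0.19).

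Fibroblast and pericyte markers had the lowest median of all lists described, -1.0 (-1.40 with Dox). Of 13 with signal, 7 were lower in MIO-M1-CTG(648) cells and 2 higher, and their mean signal lay between 11.13 and 11.31 on the MIO-M1-CTG(648) arrays and between 12.21 and 12.37 on the MIO-M1-CTG(0) arrays. Lower beside *LUM* were the matricellular *POSTN* (-3.0), smooth muscle actin *ACTA2* (-2.04), *S100A4* (-1.56), *RGS5* (-1.13), *TAGLN* (-1.05) and *PDGFRB* (-0.67). Higher were *PDGFRA* (2.04) and *FAP* (1.3). The collagen I genes were bright in both lines and not called, *COL1A1* at 14.08 and 14.55 and *COL1A2* at 18.08 and 17.64 in MIO-M1-CTG(648) and MIO-M1-CTG(0) cells. The list therefore did not move as 1 block, and whether other cells had a part in it was not tested. 

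Markers of further cell types had signal in part, and single members were called. Of 10 endothelial markers 4 had signal and 2 were higher, the VEGF receptor *KDR* (11.03 in MIO-M1-CTG(648) cells against 9.49 in MIO-M1-CTG(0) cells) and the ETS factor *ERG* (8.26 against 7.29), while the defining *PECAM1* (3.05 against 3.25) and *CDH5* (3.68 against 3.50) were under 5. Of 12 epithelial markers 7 had signal, with the keratin *KRT18* higher (1.06) and the splicing factor *ESRP1* lower (-0.95), and *EPCAM* (3.63 against 3.73) and *CDH1* (3.56 against 3.64) under 5. Of 13 microglia and macrophage markers 5 had signal and the adaptor *TYROBP* was higher (0.85), and the pan-leukocyte *PTPRC* was at 4.67 against 5.50 and not called. Of 10 pigment epithelium markers 4 had signal, with the factor *MITF* higher (1.01) and *SERPINF1* lower (-1.53). The pigment gene *TYRP1* had signal in both lines (9.63 against 8.89) and was not called, and *RPE65* (4.09 against 3.71) was under 5. Of 14 retinal neuron markers 7 had signal, with the synaptic vesicle gene *SYT1* higher (1.97) and the neurofilament gene *NEFL* lower (-1.13). The mean signal of a list over its markers with signal ranged from 7.04 to 7.53 on the MIO-M1-CTG(648) arrays and from 6.64 to 6.76 on the MIO-M1-CTG(0) arrays for endothelial markers, and overlapped between the lines for the epithelial, microglia and macrophage, and pigment epithelium lists. For retinal neuron markers it was 7.16 to 7.24 and 6.96 to 7.03 in the same order. Their part in the line difference was not tested.

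Extracellular matrix genes were called in both directions. Of 20 fibrillar and network collagens with signal, 3 were higher and 6 lower (median -0.26, and -0.60 with Dox), and the lower ones include all 3 chains of the classical collagen VI heterotrimer, *COL6A3* with *COL6A2* (-1.36) and *COL6A1* (-0.78). *COL10A1* (-2.24), *COL24A1* (-1.69) and *COL4A1* (-1.24) were also lower, and *COL4A4* (1.11), *COL8A2* (0.85) and *COL5A1* (0.75) higher. Of 10 other collagens 3 were higher and 0 lower, led by *COL14A1* (1.79). Of 24 genes of collagen processing, 6 were higher and 3 lower. The higher ones include the prolyl 3-hydroxylases *P3H2* (3.41) and *P3H3* (2.11), the lysyl oxidase *LOXL3* (2.23) and the collagen chaperone *SERPINH1* (1.55). *P3H2* had 15.75, 15.90 and 15.66 in MIO-M1-CTG(648) cells, against 12.09, 12.39 and 12.60 in MIO-M1-CTG(0) cells. The list thus included genes far higher and, with *PCOLCE*, far lower in the same line.

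Small leucine-rich proteoglycans, which bind collagen and growth factors in the matrix, were called in 8 of 10 genes with signal, 4 each way. *LUM*, biglycan (*BGN*, -1.40), *PRELP* (-1.35) and *PODNL1* (-1.20) were lower. Asporin (*ASPN*), osteomodulin (*OMD*, 2.50), *ECM2* (1.26) and osteoglycin (*OGN*, 1.18) were higher. *ASPN* had 8.65, 8.75 and 8.78 in MIO-M1-CTG(648) cells, against 3.71, 3.97 and 3.71 in MIO-M1-CTG(0) cells. The elastic fibre and microfibril list had 6 higher and 4 lower of 14, with *MFAP4*, *FBLN5*, fibrillin 1 (*FBN1*, -1.12) and *EMILIN1* (-0.79) lower and *FBLN1* (1.75), *MFAP5* (1.17) and *EFEMP2* (1.05) among the higher. Of 10 basement membrane genes 5 were higher and 1 lower (median 0.63), with laminin α1 (*LAMA1*) at 12.89, 12.76 and 12.67 in MIO-M1-CTG(648) cells, against 8.32, 8.35 and 8.83 in MIO-M1-CTG(0) cells. Laminin β1 (*LAMB1*, -1.12) was the lower one.

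Cell surface receptors for matrix were called more often higher. Of 18 integrins with signal, 7 were higher and 3 lower (median 0.40, and -0.02 with Dox). Integrin β4 (*ITGB4*), the partner of α6 in hemidesmosomes, had 10.27, 8.94 and 9.02 in MIO-M1-CTG(648) cells, against 5.30, 5.05 and 5.58 in MIO-M1-CTG(0) cells. *ITGB8* (1.98), the collagen receptor *ITGA11* (1.84), *ITGA3* (1.60), *ITGA9* (1.37), *ITGA6* (1.06) and *ITGAV* (0.67) were higher as well, and the fibronectin receptor chain *ITGA5* (-1.13), *ITGA2* (-0.81) and *ITGB2* (-0.71) lower. Of matrix metalloproteinases and their inhibitors, 2 were higher and 4 lower of 13, with the inhibitor *TIMP4* at 3.00 and *MMP8* at -1.54.

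Metallothioneins, small cysteine-rich proteins that bind zinc and copper, were higher as a cluster. Of 9 members with signal 8 were higher in MIO-M1-CTG(648) cells and 0 lower, with a median of 1.61 (1.29 with Dox). They were *MT1F* (3.37), *MT1E* (2.16), *MT1M* (1.81), *MT1H* (1.76), *MT1G* (1.61), *MT1X* (1.54), *MT2A* (1.18) and *MT4* (1.00), and *MT3* was at 0.14. *MT1F* had 14.51, 15 and 15.15 in MIO-M1-CTG(648) cells, against 11.84, 11.24 and 11.46 in MIO-M1-CTG(0) cells. *MT2A* was among the brightest genes of both lines, at 18.29, 18.87 and 18.70 in MIO-M1-CTG(648) cells, against 17.57, 17.20 and 17.54 in MIO-M1-CTG(0) cells. These genes are near-identical neighbours, so single members are uncertain where probes can bind more than 1 of them. Metallothionein promoters are known for metal response elements, the sites of the zinc-sensing factor MTF1. The promoters of 3 called members are shown with matches to the element's core (TGCACNC or TGCGCNC, either strand) in capitals, from 250 bases before to 50 bases after the gene start, on the plus strand of chromosome 16 in RefSeq's GRCh38.p14 annotation (*MT2A* chr16:56608334-56608633, *MT1X* chr16:56682220-56682519, *MT1H* chr16:56669564-56669863).
MT2A: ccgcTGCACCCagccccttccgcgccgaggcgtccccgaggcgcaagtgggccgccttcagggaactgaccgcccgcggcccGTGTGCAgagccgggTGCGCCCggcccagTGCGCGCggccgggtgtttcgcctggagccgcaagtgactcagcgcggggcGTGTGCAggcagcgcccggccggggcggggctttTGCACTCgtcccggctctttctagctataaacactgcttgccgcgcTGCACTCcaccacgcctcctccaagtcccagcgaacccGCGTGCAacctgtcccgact
MT1X: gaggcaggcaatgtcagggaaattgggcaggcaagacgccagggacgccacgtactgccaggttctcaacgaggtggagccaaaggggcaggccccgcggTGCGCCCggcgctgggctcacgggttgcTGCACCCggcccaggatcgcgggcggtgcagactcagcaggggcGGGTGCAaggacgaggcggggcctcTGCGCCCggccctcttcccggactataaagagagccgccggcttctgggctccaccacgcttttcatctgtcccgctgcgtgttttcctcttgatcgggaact
MT1H: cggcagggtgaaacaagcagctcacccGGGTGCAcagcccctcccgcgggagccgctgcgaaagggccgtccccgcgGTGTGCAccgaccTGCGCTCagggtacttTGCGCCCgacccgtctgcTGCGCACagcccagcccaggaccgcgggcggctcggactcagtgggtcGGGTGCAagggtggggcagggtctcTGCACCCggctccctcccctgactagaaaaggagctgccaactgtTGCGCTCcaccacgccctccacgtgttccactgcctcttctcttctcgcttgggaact
They hold 8, 4 and 8 matches. At least 1 match occurs in 29.6% of 35116 promoters of this length, at least 2 in 8.6% and at least 3 in 2.3%. All 4 called metallothioneins whose promoter was matched, *MT4* with 3 matches included, hold at least 2. A match is a description of the letters and no measured site.

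Calls among genes of DNA replication were mostly lower. Of 56 E2F targets and replication genes, all with signal, 3 were higher and 18 lower, with a median of -0.54 (-0.20 with Dox). E2F factors switch on these genes as cells enter S phase. Lowest were the helicase subunit *GINS4*, with 8.99, 9.07 and 8.94 in MIO-M1-CTG(648) cells, against 10.68, 10.65 and 11.15 in MIO-M1-CTG(0) cells (difference -1.83, standard error 0.20), cyclin E2 (*CCNE2*, -1.42), *MCM10* (-1.34), the polymerase subunit *POLE2* (-1.15), *TIPIN* (-1.08), *GINS1* (-1.05), *RFC5* (-1.05) and *RFC2* (-1.01). *POLA1* (1.03), *E2F8* (0.89) and *RRM1* (0.54) were higher. By comparison, 34 mitosis genes had a median of -0.02, with 2 lower (*AURKB*, -0.92, and *NUF2*, -0.76) and 0 higher.

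E2F sites were looked for in the same promoters (TTTCCCGC, TTTGGCGC, TTTCGCGC or TTTGCCGC, either strand). At least 1 is present in 3.31% of the 35116 promoters and in 22 of 47 of the list that were matched. By call, 7 of 14 lower members, 14 of 31 not called and 1 of 2 higher hold one, so members with and without the letters lie on both sides of the threshold. As examples, *MCM7* was lower (-0.80) and *MCM6* was not called (0.31); both encode subunits of the same replicative helicase. They are shown with the sites in capitals, both read on the minus strand (*MCM7* chr7:100101348-100101647, *MCM6* chr2:135876394-135876693).
MCM7: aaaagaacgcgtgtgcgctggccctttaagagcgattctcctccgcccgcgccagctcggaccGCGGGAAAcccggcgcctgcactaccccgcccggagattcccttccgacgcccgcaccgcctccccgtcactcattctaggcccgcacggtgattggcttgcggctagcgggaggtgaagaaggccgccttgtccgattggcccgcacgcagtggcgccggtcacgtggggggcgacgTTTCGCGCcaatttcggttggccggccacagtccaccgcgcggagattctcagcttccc
MCM6: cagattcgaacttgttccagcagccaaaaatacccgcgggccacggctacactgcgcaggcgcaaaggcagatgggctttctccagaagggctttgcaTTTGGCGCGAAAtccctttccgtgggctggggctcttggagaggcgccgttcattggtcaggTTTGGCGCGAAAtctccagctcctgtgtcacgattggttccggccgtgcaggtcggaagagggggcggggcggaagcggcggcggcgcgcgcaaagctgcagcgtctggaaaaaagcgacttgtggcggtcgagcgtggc
The promoter of *MCM7* holds 2 sites and that of *MCM6* 4, which overlap in 2 pairs.

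Of the 56 replication genes, 4 lie on chromosome 8, and 3 of these were called, *GINS4*, *CCNE2* and *MCM4*. Outside chromosomes 8 and 11, 15 of 47 were lower and 1 higher, with a median of -0.55.

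Lipid synthesis and stress response genes were called mostly higher. Of 27 genes of cholesterol and fatty acid synthesis 10 were higher and 2 lower, with a median of 0.44, against -0.31 with Dox. The desaturase *FADS2* had 17.43, 17.25 and 17.27 in MIO-M1-CTG(648) cells, against 15.79, 15.94 and 16.01 in MIO-M1-CTG(0) cells (difference 1.40). Also higher were *DHCR7* (1.29), *EBP* (1.13) and *SC5D* (1.03) of the late sterol pathway, and *MVD* (1.00) of the earlier mevalonate pathway. Of the genes named here, *FADS2*, *DHCR7* and *SC5D* lie on chromosome 11. Among 24 genes of the integrated stress and unfolded protein response, 11 were higher and 4 lower (median 0.40). Higher were *VLDLR* (1.34), *HERPUD1* (1.24), *DNAJB9* (1.02), *ATF3* (1.02) and *SLC7A5* (1.01), and the mTORC1 inhibitor *DDIT4* was the lowest (-2.56). The list thus held members well below the other line although its median was above 0. Of 40 respiratory chain subunits 5 were higher and 1 lower (median 0.27). Of 34 cytosolic ribosomal proteins 0 were higher and 3 lower (median -0.31), of which *RPL30* (-0.96) and *RPL7* (-0.83) lie on chromosome 8. For the respiratory chain and ribosomal lists alike, the share called was below the 18.5% over all genes with signal.

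Signalling genes were called in both directions. Of 35 Wnt pathway genes 10 were higher and 5 lower. The higher ones included the secreted modulators *SFRP2* (2.71) and *SFRP4* (1.99) and the receptors *FZD6* (2.13) and *FZD4* (1.5), and the lower ones the transcription factor *TCF7L1* (-2.14), the secreted agonist *RSPO3* (-1.51) and the secreted antagonist *DKK1* (-1.33). Of 16 Notch pathway genes 1 was higher and 4 lower, among them the ligand *JAG1* (9.88, 9.99 and 9.76 in MIO-M1-CTG(648) cells, against 12.16, 11.69 and 12.50 in MIO-M1-CTG(0) cells) and the targets *HEY1* (-1.71), *HES1* and *HEY2* (-1.18). In the TGF-β and BMP list 4 were higher and 7 lower of 33, with the ligands *BMP4* (3.50) and *BMP6* (2.16) highest and the inhibitor *SMAD7* (-1.58) lowest. *BMP4* had 11.76, 12.43 and 12.34 in MIO-M1-CTG(648) cells, against 8.90, 7.85 and 9.29 in MIO-M1-CTG(0) cells. In the PDGF and FGF list 6 were higher and 4 lower of 22, with *PDGFRA* (2.04) the highest and the ligand *FGF7* (-2.45) the lowest.

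Guidance genes were evenly split, with 7 higher and 7 lower of 42, from *SEMA3E* and the receptor *EPHA5* (2.34) to *EPHA7* (-3.47) and *EFNB1* (-2.08). Potassium channel subunits had 6 higher and 5 lower of 22, among them the inward rectifier *KCNJ2* (2.27) and the auxiliary subunit *KCNMB4* (2.46). *KCNG1* (-1.83) was the lowest channel gene.

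Immune genes moved in both directions as well. Of 44 interferon-stimulated genes 5 were higher and 11 lower, with a median of -0.10. Lowest were the antiviral *RSAD2* (-1.78), *IFI44* (-1.57), *XAF1* (-1.55), *LGALS3BP* (-1.53) and *USP18* (-1.52), while the double-stranded RNA sensor *IFIH1* was higher (1.80). Of the 5 higher, 4 lie on chromosome 11. Among 9 chemokines with signal 3 were higher and 2 lower. *CXCL12* had 11.38, 11.35 and 11.26 in MIO-M1-CTG(648) cells, against 15.19, 15.25 and 15.47 in MIO-M1-CTG(0) cells (difference -3.97, standard error 0.18), the opposite direction to its scavenger receptor *ACKR3* (4.20). The complement inhibitor *CFI* (3.07), *TLR4* (1.61) and *CX3CL1* (1.71) were higher. Of 23 NF-κB pathway genes 2 were higher and 6 lower (median -0.15, and 0.47 with Dox).

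**Figure D2:**
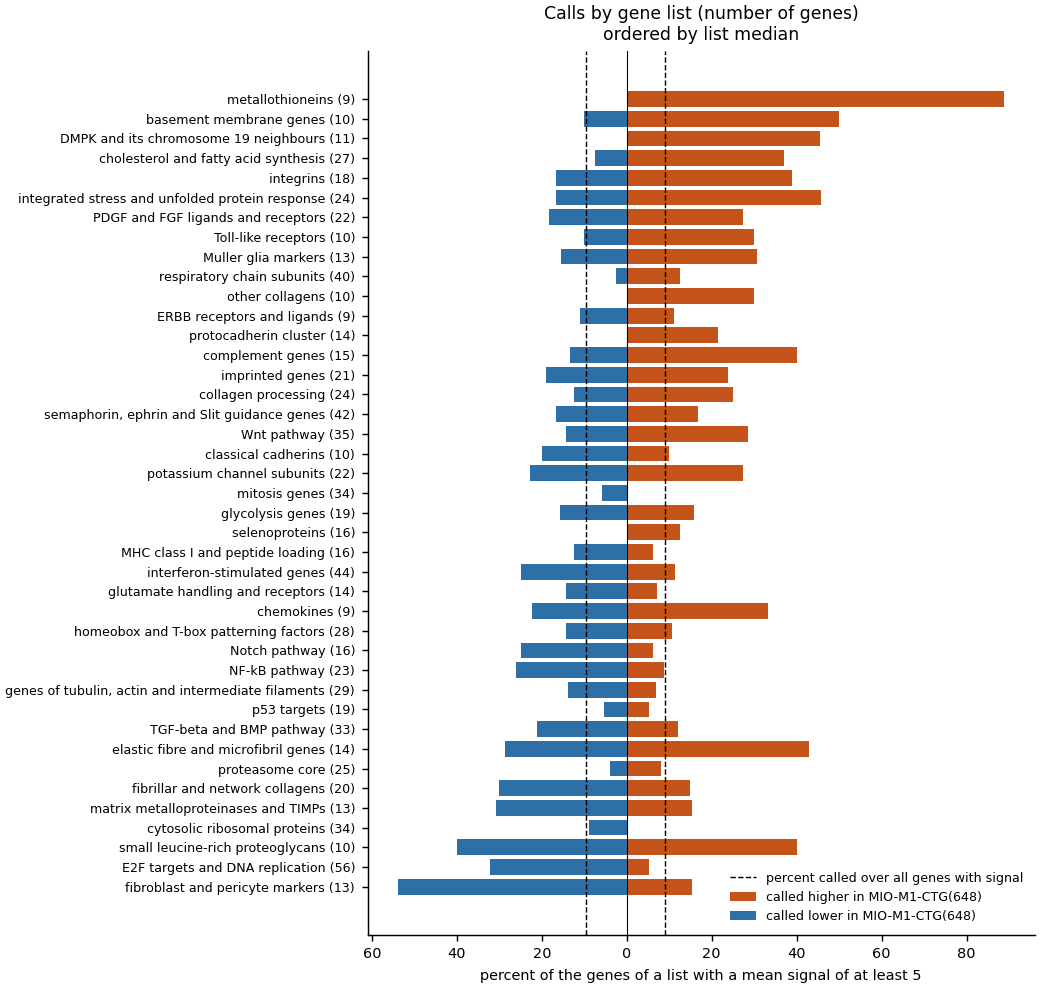
Percent of the genes with signal of each list called higher (right of 0, orange) and lower (left of 0, blue) in non-induced MIO-M1-CTG(648) cells against MIO-M1-CTG(0) cells, with the number of genes with signal in brackets and lists ordered by their median difference. Dashed lines give the percent over all genes with signal, 8.97 higher and 9.57 lower; metallothioneins lie at the top and fibroblast and pericyte markers at the bottom.

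Differences were unevenly spread over the genome. On chromosomes 1 to 22, 17620 genes had signal, with a median difference of -0.04, 46.2% above 0 and 18% called. On chromosome 11, 201 genes were higher and 28 lower of 934 (24.5% called), the median was 0.24 and 71.7% were above 0. On chromosome 8 the balance was the other way, with 25 higher and 171 lower of 660 (29.7% called), a median of -0.29 and 26.7% above 0. Chromosome 12 had 102 higher and 135 lower (25.6% called), and chromosome 2 had 187 higher and 89 lower (22.2%). The lowest share called was on chromosome 20, with 29 higher and 29 lower (11.9%).

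For each array, the median over a chromosome's genes of the signal minus the mean of the 6 arrays was taken. On chromosome 11 it was 0.120, 0.126 and 0.142 in MIO-M1-CTG(648) cells, against -0.160, -0.193 and -0.0467 in MIO-M1-CTG(0) cells. On chromosome 8 it was -0.142, -0.173 and -0.159 in MIO-M1-CTG(648) cells, against 0.118, 0.143 and 0.208 in MIO-M1-CTG(0) cells. The lines did not overlap on either. An exact permutation test of 3 against 3 arrays gave p = 0.1 for both, two-sided, which is the smallest it can give. In all, 15 of 22 chromosomes had arrays that did not overlap, 3 higher (chromosomes 2, 9 and 11) and 12 lower. With Dox, on other arrays, 14 of the 15 again did not overlap in the same direction, and the median kept its sign on 21 of 22. Replicate 3 of MIO-M1-CTG(0) stood above the other 2 of its line on all 22 chromosomes, by its median of 0.085 over all genes against -0.012 and -0.010. With each array's own median over all genes subtracted, a setting added after the values were seen, the arrays did not overlap on 22 of 22 chromosomes, 10 higher and 12 lower, and the difference between lines was 0.304 on chromosome 11 and -0.274 on chromosome 8.

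**Figure D3:**
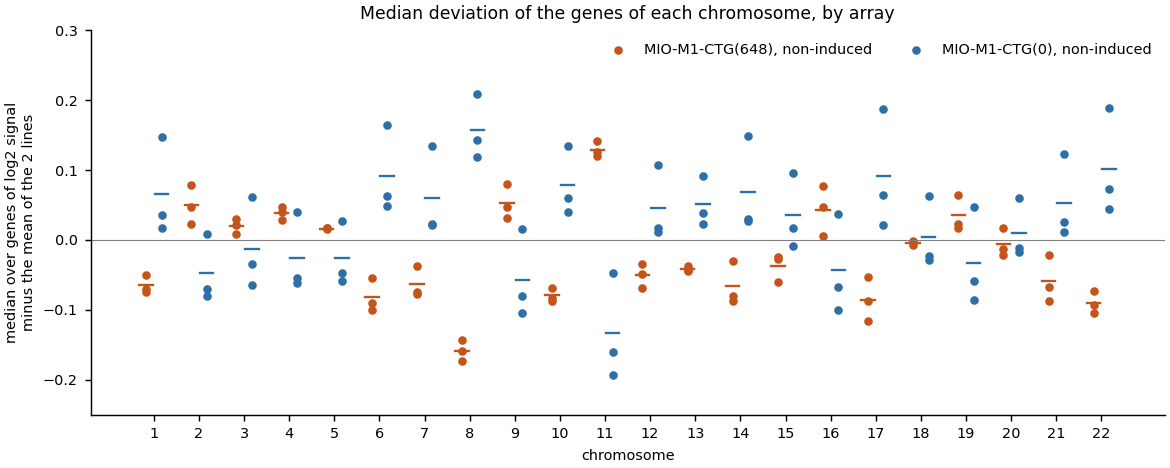
Median over the genes with signal of each chromosome of the log2 signal minus the mean of the 6 non-induced arrays, for each MIO-M1-CTG(648) array (orange) and MIO-M1-CTG(0) array (blue), with the mean of each line as a dash. Chromosomes 8 and 11 have the widest gaps, in opposite directions, and 1 MIO-M1-CTG(0) array lies above the other 2 throughout.

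Within chromosomes the differences followed segments. The genome was cut into 193 blocks of 15 Mb with at least 20 genes each, of which 14 had a median of at least 0.25 and 18 of at most -0.25. The arrays of the lines did not overlap in 140 of all 193 blocks (72.5%) and in each block chosen for such a median, where the choice nearly fixes it. With Dox, on other arrays, the chosen blocks all had the same sign, as did 167 of all 193 (86.5%). On chromosome 8, 7 of 10 blocks were low, from 15 Mb to 120 Mb without a gap (medians -0.33, -0.41, -0.56, -0.57, -0.52, -0.47 and -0.33), while the blocks at its ends had -0.11, -0.17 and -0.01. On chromosome 2 the first 90 Mb had block medians from -0.16 to -0.02, and from 150 Mb to the end of the long arm they were 0.22 to 0.47. Chromosome 12 held both signs, with 0.23 and 0.41 over its first 30 Mb and -0.36, -0.23, -0.32 and -0.43 from 75 Mb on. In the last of these blocks 0 of 109 genes were higher and 32 lower. Chromosome 11 was above 0 in all 9 blocks (0.10 to 0.34). Single genes still went against the median of their chromosome. On chromosome 8 the nicotinic receptor modulator *LYNX1* was at 3.56, angiopoietin 2 (*ANGPT2*) at 2.46 and *XKR4*, within the low blocks, at 2.23. On chromosome 11 *MUC15* was at -4.70 and the tetraspanin *CD82* at -3.65.

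**Figure D4:**
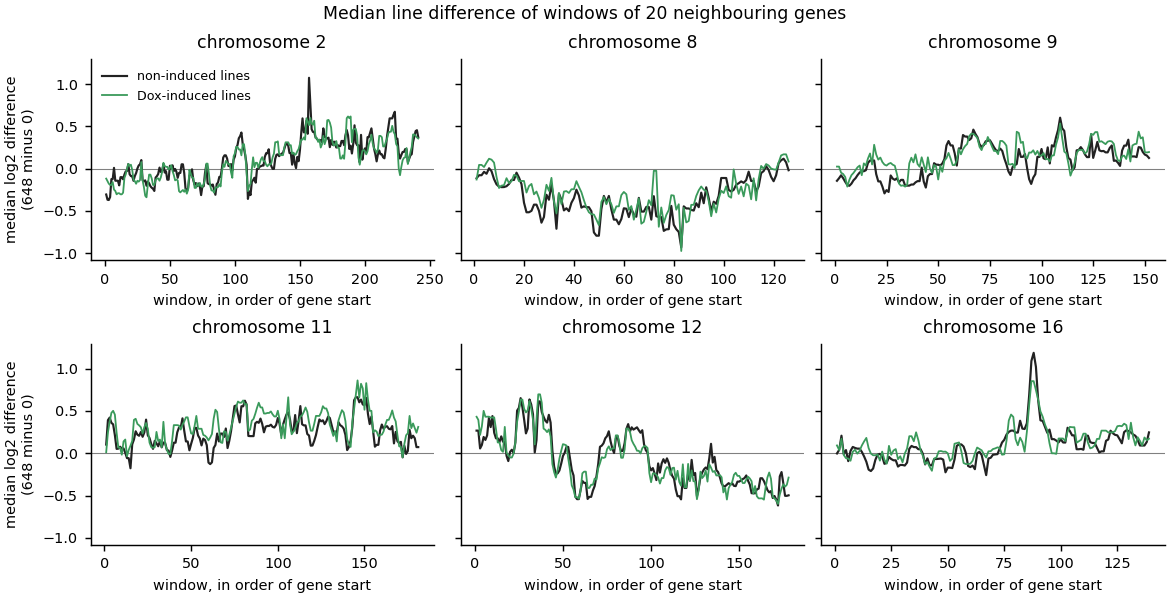
Median log2 difference (648 minus 0) of windows of 20 neighbouring genes with signal along 6 chromosomes, in order of gene start, between the non-induced lines (black) and the Dox-induced lines (green). Chromosome 8 lies below 0 over most of its length, chromosome 12 changes sign, and the highest window, on chromosome 16, reaches 1.19.

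Windows of 20 neighbouring genes, moved in steps of 5, show the segments more finely. Of 3388 windows, 118 had a median above 0.4 and 155 below -0.4, and the median over windows was -0.057. Ranks are given among windows that do not overlap. Each window named here and below was chosen by the same differences, so calls in mostly 1 direction nearly follow from the choice. The highest window, on chromosome 16 (56470403 to 57240469, *BBS2* to *RSPRY1*), holds the metallothionein cluster and had a median of 1.19 (0.85 with Dox), with 14 higher and 0 lower. Most of its genes are metallothionein genes or pseudogenes, whose probes may bind more than 1 member. Outside that family only *BBS2* (0.99) and *HERPUD1* (1.24) were called. The third highest, on chromosome 2 (161499067 to 168247595), had a median of 1.08 (0.52 with Dox), with 11 higher and 0 lower, among them the glycosyltransferase *GALNT3* (3.29), the peptidase *DPP4* (3.25), *COBLL1* (2.17), *IFIH1* (1.80), *FIGN* (1.5), the sodium channel *SCN9A* (1.33) and *FAP* (1.3). *DPP4* had 11.38, 10.95 and 10.76 in MIO-M1-CTG(648) cells, against 7.89, 7.57 and 7.87 in MIO-M1-CTG(0) cells. Genes of unlike function were thus higher side by side, *FAP* and *DPP4* being related peptidases. The fifth, on chromosome 11 (106051098 to 110296614), had a median of 0.66 (0.86 with Dox) with 11 higher, such as *EXPH5* (1.82), *SLN* (1.73) and *ACAT1* (1.31).

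All 5 lowest windows that do not overlap lie on chromosome 8. The lowest (94487689 to 97853013, *VIRMA* to *LAPTM4B*) had a median of -0.93 (-0.97 with Dox), with 0 higher and 11 lower, among them *LAPTM4B* (-1.60), *NDUFAF6* (-1.60), *PTDSS1* (-1.53) and *CCNE2* (-1.42). The second (47157087 to 55542054) had a median of -0.79, with 1 higher and 10 lower. It holds *SNAI2*, a transcription factor of mesenchymal cells, with 13.19, 13.36 and 13.24 in MIO-M1-CTG(648) cells, against 15.89, 15.93 and 16.07 in MIO-M1-CTG(0) cells (difference -2.70, standard error 0.16), beside the DNA repair kinase *PRKDC* (-1.29) and *MCM4* (-0.99). The window with *RBPMS* (-1.47) had a median of -0.71 and includes the growth factor neuregulin 1 (*NRG1*, -1.74).

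A small nucleolar RNA cluster on chromosome 14 formed the second highest window (100951856 to 100988229, *SNORD114-2* to *SNORD114-27*), with a median of 1.11 (1.19 with Dox), 13 higher and 0 lower. The cluster lies in the imprinted region between *DLK1* and *DIO3* (100726892 to 101561495), where the non-coding RNAs are known to be transcribed from the maternal copy. Of 30 *SNORD114* probe sets 15 were higher and 29 above 0 (median 0.93, and 1.14 with Dox), and of 9 *SNORD113* probe sets 4 were higher and 8 above 0 (median 0.96). *SNORD114-14* had 13.84, 14.58 and 14.46 in MIO-M1-CTG(648) cells, against 12.82, 12.77 and 13.32 in MIO-M1-CTG(0) cells (difference 1.32, standard error 0.25), and *SNORD114-22* had the largest difference in the window (1.79). Members of these families resemble each other, so a probe may take up several. The protein-coding genes at the ends of the region lay under the signal level in both lines, *DLK1* at 3.99 against 3.82 and *DIO3* at 2.95 against 2.95, so that no difference could be read for them. Of the 8 probe sets outside the small nucleolar RNA and microRNA families, 4 had signal and 0 were called. The long non-coding *MEG8* was at 9.03 against 8.43 and *MEG9* at 8.71 against 8.16. With Dox, *MEG8* was called higher (1.42) and *MEG9* was not called (0.11). Of the 54 microRNA probe sets of the region 1 was higher and 46 were above 0, with a median of 0.28. Only 20 of the 54 had signal, and their median was 0.51.

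MicroRNA genes were called in 11 of 1506 probe sets, 5 higher and 6 lower (0.73%). The array reads the locus, not a mature arm, and most of these signals are low. Mature sequences from RefSeq (GRCh38.p14) are given for the called gene of the chromosome 14 region, *MIR379*, and for the 3 with the largest positive differences, with the seed (bases 2 to 8) in capitals. They lie at chr14:101022071-101022091 (plus strand), chrX:39837562-39837581 (plus), chrX:85903681-85903702 (minus) and chr10:113778000-113778016 (minus) in the order shown.
hsa-miR-379-5p: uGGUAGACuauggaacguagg
hsa-miR-1587: uUGGGCUGggcuggguuggg
hsa-miR-361-5p: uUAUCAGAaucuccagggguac
hsa-miR-4483: gGGGUGGUcuguuguug
No seed is shared among them. *MIR1587* was at 0.93, *MIR361* at 0.88, *MIR4483* at 0.88 and *MIR379* at 0.86, all with means under 5 in both lines, and none was called with Dox. The lowest were *MIR6895* (-1.30), *MIR4653* (-1.21), *MIR6783* (-1.17) and *MIR5087* (-1.01), and the mature sequences of *MIR5087* and *MIR4653*, whose signals were above 8 in both lines, are shown (chr1:148334522-148334544, minus strand, and chr7:101159482-101159503, plus strand).
hsa-miR-5087: gGGUUUGUagcuuugcuggcaug
hsa-miR-4653-5p: uCUCUGAGcaaggcuuaacacc

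Among 19 p53 targets with signal 1 was higher and 1 lower (10.5%, against 18.5% over all genes with signal). Of 16 genes of MHC class I and peptide loading 1 was higher and 2 lower, with *TAP2* at -1.66. Their share called, 18.8%, was near that over all genes. Of 21 imprinted genes with signal 5 were higher and 4 lower, from *PPP1R9A* (1.87) to the small GTPase *DIRAS3* (-3.42). T-box factors differed in direction, with *TBX3* at -4.60 and *TBX5* at 1.86 (7.70, 7.53 and 7.99 in MIO-M1-CTG(648) cells, against 5.69, 6.41 and 5.55 in MIO-M1-CTG(0) cells).

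The arrays of the Dox-induced lines gave the line difference a second time. They share no array with the non-induced comparison, although the variance was estimated over all 12. Between the Dox-induced lines 3571 probe sets were called (9.87%), 1941 higher (5.37%) and 1630 lower (4.51%). Of the 1790 higher without Dox, 1076 were also called higher with Dox (60.1%), 1670 had the same sign (93.3%) and 13 were called the other way. Of the 1878 lower, 958 were also called lower (51.0%), 1785 had the same sign (95.0%) and 6 were called the other way. The 2034 shared calls make up 55.5% of the calls without Dox and 57.0% of those with it. Large differences recurred most often: of those above 2 in size, 145 of 154 higher and 102 of 109 lower were called again. *COL6A3* was at -8.92 with Dox, *PCOLCE* at -7.29, *LUM* at -8.41, *CD180* at 6.87, *MALL* at 6.27 and *CRYAB* at 5.02.

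A line difference that itself changed with Dox was seen for 588 probe sets by the interaction at the same limits (1.63%), and for 113 after Benjamini-Hochberg adjustment at the same fold limit. Among genes higher without Dox, 198 were in this set, and the difference was more negative with Dox in 175 of them. Among those lower, 98 were in the set, and in 80 the difference was more positive with Dox. Differences that crossed 0, such as that of *OGN* (1.18 without Dox and -1.14 with it), are included. The non-induced arrays enter both the choice of these genes and the interaction, so these counts are a description. *SELENOP* was at 6.12 without Dox and 2.35 with it (interaction adjusted p = 0.0104), *ASPN* at 4.93 and 2.39 (0.00548) and *PDE5A* at 5.22 and 2.80 (0.0271). *RSAD2* was at -1.78 without Dox and 0.29 with it (interaction adjusted p = 0.00548), and *CXCL10* at 1.36 and 3.83 (0.00318).

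**Figure D5:**
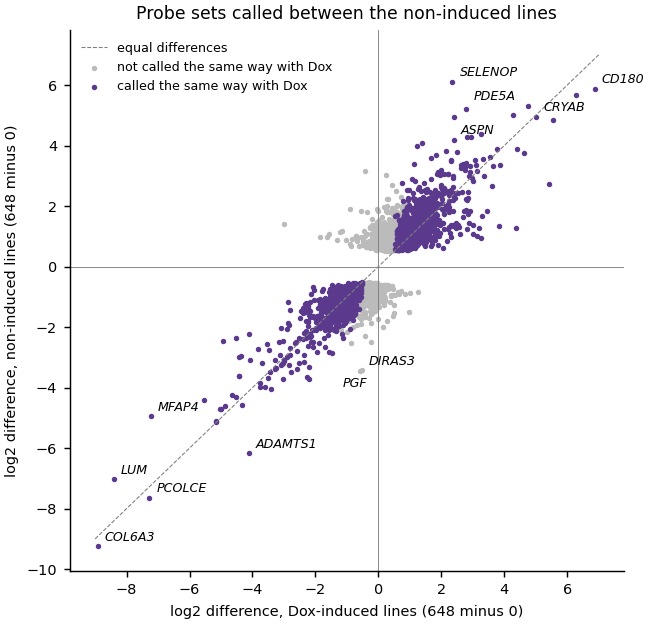
Log2 difference (648 minus 0) of the probe sets called between the non-induced lines, vertical axis, against the difference between the Dox-induced lines, horizontal axis; purple points were called the same way with Dox and grey points were not, and the dashed line marks equal differences. Of 3668 points 2034 are purple, and *COL6A3* lies at the far lower left in both.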

How the data were processed

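RNA of 2 MIO-M1 lines, each non-induced and Dox-induced, was read on 12 Clariom D Human arrays, 3 per group. The log2 signals deposited by the authors, given to 2 decimals, had been background-corrected by RMA and quantile-normalized according to their methods, and hg38 is the build in their processing notes. Software versions, and how a step of this scale relates to a fold in RNA, were not given in the sources used here. The values were used as deposited, no detection p-values were used, and the number of arrays limits the precision.

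Of 135750 probe sets, 36176 have 1 gene symbol, 1119 several and 98455 none. RefSeq annotation (GRCh38.p14) was attached through the Entrez ID for 25516 of these and through the symbol for 9899, which left 761 unmatched. The 4 groups were fitted together on all probe sets with limma 3.58.1 under R 4.3.3 (8 residual and 5.43 prior degrees of freedom), and p-values were adjusted by Benjamini-Hochberg across the 36176. The fit was tested on simulated data. Where a gene had more than 1 probe set, lists and chromosomes used the brightest, and a mean of at least 5 in a line counts as signal. Chromosomes come from the probe set identifiers.

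Named genes are *DMPK*, *MBNL1*, *MBNL2*, *CELF1* and *CELF2*, the 15 highest and 15 lowest protein-coding and 6 highest and 6 lowest non-coding calls without overlap, the 4 highest and 4 lowest microRNA genes, up to 6 called members of each of 57 lists (all of a list of up to 10), 3 genes at each end of a chromosome, called members of windows, and switch-like genes. Further list members and unchanged markers were named after their values were seen. The members, lists and tests were chosen with earlier results of these data known. Promoters were matched by symbol for 16474 of 33616 genes. Alternatives covered the fold limit, p adjustment, variance model, array weights, scaling, filters, the methods' t-test, a replicate block and each array left out in turn.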

Additional observations from a re-analysis of the deposited data

Results flagged for a closer look

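For 24 of the genes named, the line difference with Dox differed from that without it at an interaction adjusted p under 0.05 in limma. Values are the difference with Dox minus the difference without it, on the log2 scale.

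For *ASPN* (-2.54), *ITGB4* (-2.71), *LAMA1* (-1.45), *LOXL3* (-1.91), *OMD* (-1.94), *ITGA11* (-1.84), *COL14A1* (-2.14) and *OGN* (-2.32), all higher in MIO-M1-CTG(648) cells without Dox, the difference was smaller or below 0 with it. *OGN* and *COL14A1* had opposite signs in the 2 comparisons. For *MFAP4* (-2.30), *POSTN* (-1.43) and *PDGFRB* (-1.40), lower in MIO-M1-CTG(648) cells without Dox, the difference was larger in size with it, and for *ADAMTS1* (2.06) it was smaller.

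*SELENOP* (-3.76) had the largest change of these 24, and *SEMA3E* (-2.75), *PDE5A* (-2.42), *ACKR3* (-1.79), *BMP6* (-1.39) and *CFI* (-1.20) were also less far above MIO-M1-CTG(0) cells with Dox. *FADS2* (-1.43) was at 1.40 without Dox and -0.02 with it. *FGF7* (-2.48) was farther below. *DIRAS3* (2.89) was lower by 3.42 without Dox and at -0.53 with it.

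*ATF3* (2.11) and *CXCL10* (2.48) were farther above MIO-M1-CTG(0) cells with Dox, and *RSAD2* (2.07) was lower without Dox and not called with it.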

How the results depend on the processing

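No chromosome median or named gene reversed under the alternatives. Counts could only stay or move, and most named genes were chosen as called, so their sign could hardly change. A chromosome median could count as reversed only if its size exceeded the SD between arrays of a line, so medians near 0 were not judged. With each array's own median subtracted, chromosomes 18 and 20 were above 0 (0.033 and 0.024), against medians of -0.01 and -0.013 without that step. Raising the limit to a difference above 1 left 1596 calls, 851 higher and 745 lower, 892 of them also called with Dox, and 193 list genes in place of 315. The methods' t-test gave 2103 calls, 1092 higher and 1011 lower, with 1090 also called with Dox. Over all 135750 probe sets, with or without a symbol, 2712 were higher, and the interaction fell to 113 calls after Benjamini-Hochberg adjustment. Without the signal limit the medians were -0.097 on chromosome 8, 0.093 on chromosome 11 and -0.027 on chromosome 12, and with a limit of 6 they were -0.335 on chromosome 8 and 0.317 on chromosome 11. The mean over genes was -0.333 on chromosome 8 and 0.129 on chromosome 2. The cause of these shifts was not tested.

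With each array left out in turn, calls ranged from 2859 to 3057, with 1338 to 1743 higher and 1283 to 1719 lower, 1694 to 1841 also called with Dox, and 261 to 283 list genes. Chromosome medians ranged from 0.076 to 0.111 (chromosome 2), -0.298 to -0.273 (8), 0.215 to 0.275 (11) and -0.102 to -0.072 (12). Of the 240 genes named, 47 lost their call under the methods' t-test, 30 with the limit of 1 and between 8 and 14 with an array left out. *SIX5*, *CD44*, *ITGAV*, *ITGB2*, *RRM1*, *PDGFRB*, *PAX6*, *E2F8*, *ATF3*, *COL8A2*, *ERG*, *KRT18*, *TYROBP*, *MMP8*, *NUF2*, *MIR379*, *MIR4483* and *MIR1587* did so for at least 2 of the 6 arrays left out singly, and *SIX5*, *CD44*, *ITGAV* and *RRM1* also with the replicate number as a block.

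Same-numbered arrays of the 2 lines did not deviate together (correlations -0.078, 0.009 and 0.019), and the replicate block gave 3352 calls, 1635 of them higher. No detection values were used, so signal over background is not known for dim genes such as the microRNA genes.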
